A study of Mus musculus with 24 samples.

Results

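The T3 response examined here is the one shared by mouse livers that lack the thyroid hormone receptor TRβ and livers whose TRβ carries a mutated DNA-binding domain. Of the 24 arrays of the series, 12 enter the comparison. They are the 6 arrays titled KO_T3 or GS_T3 against the 6 titled KO_PBS or GS_PBS, with genotype as a covariate. KO mice were TRβ knockouts and GS mice carried the amino acid changes E125G and G126S in TRβ, both on a C57BL/6J background. The 6 arrays of wild type (WT) mice of the same background, 3 with T3 and 3 with PBS, serve as the comparison with an intact receptor and share no array with the pooled comparison.

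All these mice were males of 8 to 9 weeks. All, the PBS groups included, were made hypothyroid for 3 weeks with 0.02% methimazole, 0.5% perchlorate and 0.3% saccharin in the drinking water and a low iodine diet. T3 was injected into the peritoneum at 20 µg per 100 g body weight, and liver was frozen 6 h later. Each of the 6 groups has 3 arrays. The number in each title differs, and nothing else in the labels says that the arrays are separate animals, so p-values measure the spread between these samples. Liver RNA is bulk RNA, in which fewer cells of a type and less RNA per cell cannot be told apart.

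T3, the active thyroid hormone, acts in the nucleus through the receptors TRα and TRβ. They pair with retinoid X receptors on DNA elements built from copies of the hexamer AGGTCA, and they repress many of their target genes without hormone and activate them with it. TRβ is the prevailing receptor of hepatocytes, and hepatic deiodination, lipid synthesis and mitochondrial metabolism are among the processes known to respond to T3. The comparison asks which genes still responded to T3 where TRβ was absent or was changed in the domain that contacts DNA.

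Levels are given as log2 intensities and responses as log2 differences, T3 minus PBS ± SE. Array medians of the 12 arrays ran from 5.94 to 6.00, and each array correlated with the others of its group at a mean r of 0.993 to 0.996. KO T3 replicate 1 stood apart on the second principal component, which held 15.2% of the variance, at 20.5 against -8.33 to 7.84 in the other 11 arrays. The mean level of 11 hepatocyte markers lay between 13.51 and 13.75 on every array of the 6 groups. The probe set of Thrb, the gene of TRβ, read 6.82 to 7.25 in KO and 6.81 to 6.998 in GS, against 6.38 to 7.01 in WT. The signal of this probe set was thus no lower in KO than in WT. Whether it lies inside the deleted stretch was not examined, so it checks neither label, and arrays of this kind do not read amino acid changes.

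T3 raised a small set of genes in the livers without a normal TRβ. Of 13951 genes tested with limma at a Benjamini-Hochberg adjusted p under 0.05, 63 were called (0.452%). Of these, 53 were higher with T3 (0.38% of the genes tested) and 10 lower (0.0717%). The called changes ran from 0.23 to 2.84 in size with a median of 0.48. At least 1.5-fold were 17 of them (0.122% of the genes tested), and the 5 of at least 2-fold (0.0358%) all rose. The 3 T3 arrays lay on the same side of the 3 PBS arrays in KO and again in GS for 59 of the 63, as they did for 268 of all genes tested (1.92%). Among the 53 that rose, all 6 T3 arrays lay above all 6 PBS arrays in 45, and among the 10 that fell, below them in 4. The 63 were selected on these same arrays, which favours such separation, so these counts describe them and test nothing. The same holds for the ranges given per gene below. Leaving out the GS PBS replicate 3 lowered the number called to 30 and leaving out the KO PBS replicate 3 to 40. When each of the 12 arrays was left out in turn, 29 of the 63 were called in every fit and all 63 kept their sign.

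**Figure D1:**
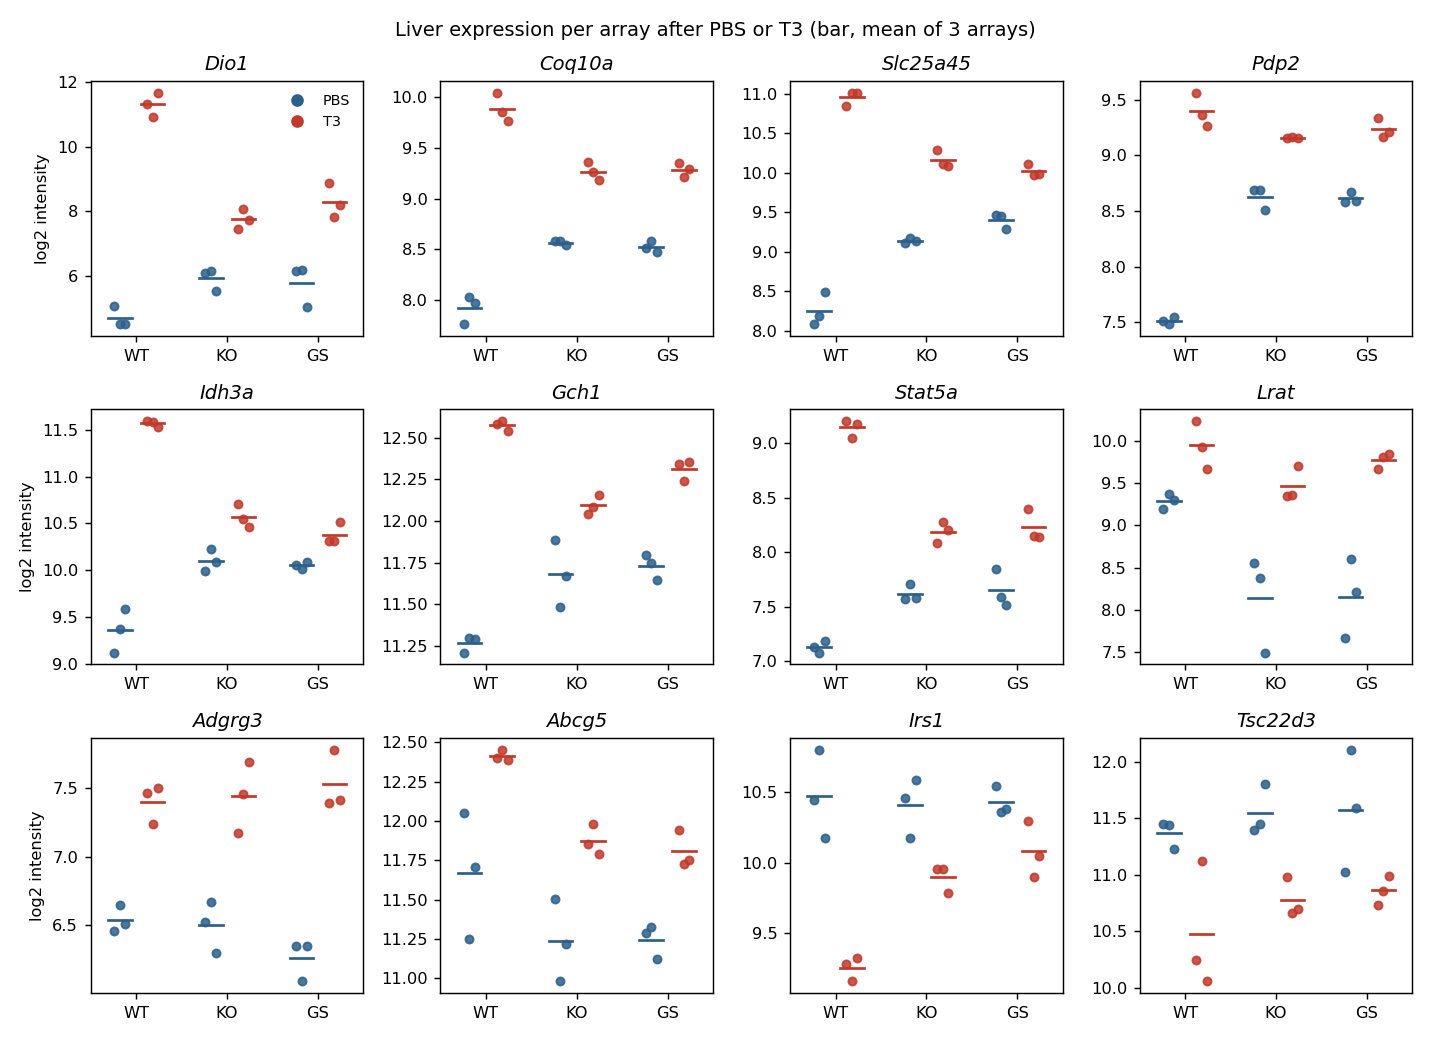
Log2 intensity of 12 called genes on each array of WT, KO and GS after PBS (blue) or T3 (red), with 3 arrays per group and a bar at each group's mean. The T3 arrays of KO and GS lie above their PBS arrays in 10 of the panels and below them in those of Irs1 and Tsc22d3, and in the first 7 panels the T3 means of KO and GS lie between both WT means.

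Promoter windows are shown for 5 of the 53 genes whose rise with T3 was called although TRβ was absent or mutated in its DNA-binding domain. The 5 were picked by hand, so how often they hold the hexamer says nothing about the 53. Each window holds 250 bases before and 50 after the RefSeq start on GRCm38.p6, 5′ to 3′ on the strand of the gene. Capitals mark the hexamer AGGTCA on either strand, so TGACCT in capitals is the hexamer read on the other strand. The windows are Dio1 at chr4:107307119-107307418 (minus strand), Coq10a at chr10:128369988-128370287 (minus), Slc25a45 at chr19:5877572-5877871 (plus), Stat5a at chr11:100859406-100859705 (plus) and Abcg8 at chr17:84682871-84683170 (plus). For Coq10a and Stat5a, with 2 windows each, the one that holds the hexamer is shown. Abcg8 also has 2 windows, neither of which holds the hexamer, and the one listed first is shown.
Dio1: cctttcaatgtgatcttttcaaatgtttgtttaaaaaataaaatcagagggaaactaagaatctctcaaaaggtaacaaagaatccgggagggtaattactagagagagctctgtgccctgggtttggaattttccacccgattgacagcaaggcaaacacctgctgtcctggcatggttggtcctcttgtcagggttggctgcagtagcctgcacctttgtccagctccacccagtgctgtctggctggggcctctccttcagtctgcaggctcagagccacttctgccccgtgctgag
Coq10a: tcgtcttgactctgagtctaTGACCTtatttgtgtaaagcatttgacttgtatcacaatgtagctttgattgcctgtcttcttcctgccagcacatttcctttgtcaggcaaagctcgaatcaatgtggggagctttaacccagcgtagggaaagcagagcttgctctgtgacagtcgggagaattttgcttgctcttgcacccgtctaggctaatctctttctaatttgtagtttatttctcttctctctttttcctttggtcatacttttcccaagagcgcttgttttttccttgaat
Slc25a45: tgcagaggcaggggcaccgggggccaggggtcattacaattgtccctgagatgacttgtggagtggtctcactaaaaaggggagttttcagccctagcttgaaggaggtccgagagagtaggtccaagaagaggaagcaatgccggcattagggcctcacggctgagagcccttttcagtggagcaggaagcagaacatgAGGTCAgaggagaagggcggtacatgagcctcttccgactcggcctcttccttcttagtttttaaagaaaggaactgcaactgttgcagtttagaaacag
Stat5a: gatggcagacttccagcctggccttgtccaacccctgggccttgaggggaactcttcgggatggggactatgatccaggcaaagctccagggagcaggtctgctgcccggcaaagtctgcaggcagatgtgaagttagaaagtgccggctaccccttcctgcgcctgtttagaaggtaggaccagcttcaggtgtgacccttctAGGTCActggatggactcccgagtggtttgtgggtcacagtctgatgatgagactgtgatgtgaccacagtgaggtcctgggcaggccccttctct
Abcg8: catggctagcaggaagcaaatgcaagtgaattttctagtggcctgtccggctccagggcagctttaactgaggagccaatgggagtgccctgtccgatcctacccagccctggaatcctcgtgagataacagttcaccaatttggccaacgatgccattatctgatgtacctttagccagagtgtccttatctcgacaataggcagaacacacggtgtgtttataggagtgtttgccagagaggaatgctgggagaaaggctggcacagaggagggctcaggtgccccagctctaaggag

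The hexamer begins 230 bases before the start in Coq10a, 50 in Slc25a45 and 46 in Stat5a, and these windows of Dio1 and Abcg8 hold none. The Abcg5 window, on the opposite strand, shares 209 bases with that of Abcg8 and holds none either. AGGTCA, searched on both strands with overlaps allowed, occurs in 16.26% of all 32851 windows of the table, in 9 of the 43 genes called higher that have a window (20.93%) and in 15.89% of the 11209 tested genes that have one. The direct repeat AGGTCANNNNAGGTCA occurs in 5 of the 32851 windows and in none of the 50 called genes with a window. A match describes letters and is no binding site.

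Dio1 encodes the type 1 deiodinase, a selenoprotein that converts and clears thyroid hormone and is a classical T3 target of liver. Its PBS values were 6.09, 6.14 and 5.54 in KO and 6.13, 6.16 and 5.03 in GS. With T3 they were 7.45, 8.06 and 7.72 in KO and 8.86, 7.81 and 8.19 in GS. Every T3 array lay above every PBS array, in both genotypes. The pooled rise was 2.17 ± 0.24 (limma, adjusted p = 9.9e-04). The PBS values stood between the 32.2 and the 53.1 percentile of their arrays, so the rise starts from a dim signal and gives no exact fold. In WT, Dio1 rose by 6.63 ± 0.21. The larger rise in WT, by 4.46 ± 0.38, was called (adjusted p = 2.7e-06). The PBS arrays of WT were dimmer still, at the 20.4 to 32.4 percentile, so neither value gives an exact fold.

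Coq10a had the smallest p of the comparison. Its protein is needed for the function of coenzyme Q in respiration, as shown for its counterpart in yeast. PBS values were 8.58, 8.58 and 8.54 in KO and 8.51, 8.58 and 8.48 in GS, and T3 values were 9.36, 9.26 and 9.18 in KO and 9.35, 9.22 and 9.29 in GS. The groups were narrow and far apart, and the rise was 0.73 ± 0.045 (adjusted p = 7.9e-06). The other 3 probe sets of Coq10a lay below the filter on every array, and the mean of all 4 rose by 0.27 (adjusted p = 0.041). Among 12 tested genes of coenzyme Q synthesis and function Coq10a alone was called, against 0.38% of all genes tested called higher. The list median was 0.13, against -0.0026 over all genes tested. The synthesis genes Pdss2 (0.16), Coq3 (0.14), Coq6 (0.13) and Coq9 (0.13) had an unadjusted p under 0.05, as had 11.2% of all genes tested (5.81% higher and 5.39% lower), and were not called.

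Slc25a45, a member of the mitochondrial carrier family, was 9.11, 9.17 and 9.13 with PBS in KO and 9.47, 9.46 and 9.29 in GS. With T3 it was 10.29, 10.11 and 10.09 in KO and 10.11, 9.97 and 9.98 in GS. All T3 arrays lay above all PBS arrays, and the rise was 0.82 ± 0.08 (adjusted p = 2.4e-04). The rise in KO, 1.02, exceeded that in GS, 0.61, by 0.41 ± 0.11, a difference with an unadjusted p of 0.0024 and an adjusted p of 0.791.

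Among 13 genes of the pyruvate dehydrogenase complex, its kinases and its phosphatases, 1 was called higher, against 0.38% of all genes tested. This was Pdp2, a phosphatase subunit that activates the complex by removing phosphate. It lay at 8.69, 8.69 and 8.51 with PBS in KO and at 8.58, 8.67 and 8.59 in GS. T3 arrays read 9.15, 9.16 and 9.16 in KO and 9.33, 9.16 and 9.21 in GS. The ranges stood clear of each other and the rise was 0.57 ± 0.05 (adjusted p = 1.8e-04). The median of the 13 genes was 0.08, and the opposing kinases Pdk1 (0.10), Pdk2 (0.07), Pdk3 (-0.08) and Pdk4 (0.11) were not called.

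Idh3a, the catalytic subunit of the citric acid cycle's NAD-dependent isocitrate dehydrogenase, was the called member among 17 genes of the cycle and the glycerol phosphate shuttle. Of all genes tested, 0.38% were called higher. The 6 PBS arrays of Idh3a ran from 9.99 to 10.23 and its 6 T3 arrays from 10.31 to 10.71. The rise was 0.40 ± 0.06 (adjusted p = 0.013). Its 3 further probe sets were at 0.10 to 0.25 and not called, and averaging its probe sets gave an adjusted p of 0.0529. Gpd2, the mitochondrial glycerol phosphate dehydrogenase, was at 0.48 ± 0.10 and not called (adjusted p = 0.060). A second probe set of Gpd2 showed 0.69 and was called in the fit over all probe sets (adjusted p = 0.023).

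Gch1, the first enzyme of tetrahydrobiopterin synthesis, was the called member of 7 genes of that pathway, against 0.38% of all genes tested called higher. Its PBS values were 11.89, 11.48 and 11.67 in KO and 11.80, 11.75 and 11.64 in GS, and with T3 they were 12.04, 12.09 and 12.15 in KO and 12.34, 12.24 and 12.36 in GS. No T3 array reached down to a PBS array. The rise was 0.50 ± 0.07 (adjusted p = 0.0048), and the second probe set rose by 0.55 and was called too.

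The transcription factors Stat5a and Stat5b, which carry the growth hormone signal in liver, were both higher. Stat5a ran from 7.52 to 7.84 on the 6 PBS arrays and from 8.08 to 8.40 on the 6 T3 arrays, and rose by 0.57 ± 0.07 (adjusted p = 0.0018). Stat5b ran from 8.96 to 9.17 and from 9.27 to 9.53, and rose by 0.31 ± 0.04 (adjusted p = 0.0060). Neither pair of ranges overlapped. A second probe set of Stat5a showed 0.62 without being called, and one of Stat5b showed 0.07. These were 2 of 13 tested genes of growth hormone, STAT5 and IGF signalling, against 0.38% of all genes tested called higher. The median of the 13 was -0.04. The growth hormone targets Igf1 (-0.25), Igfals (-0.24) and Igfbp3 (-0.51) had an unadjusted p under 0.05 and adjusted p of 0.264, 0.338 and 0.225.

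Lrat, which esterifies retinol for storage and in liver is a marker of stellate cells, rose by 1.47 ± 0.18 (adjusted p = 0.0024). It read 8.55, 8.38 and 7.49 with PBS in KO and 7.66, 8.59 and 8.21 in GS. With T3 it read 9.34, 9.35 and 9.71 in KO and 9.66, 9.80 and 9.85 in GS. The PBS arrays varied more among themselves than the T3 arrays did, and no ranges overlapped. A second, dim probe set rose by 0.78 and was called too. In WT, Lrat rose by 0.66 ± 0.13, and the response in WT minus the pooled response was -0.81 ± 0.30 (adjusted p = 0.164, not called).

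Lrat was the called member of 17 retinoid genes (median 0.06) and of 13 stellate cell and fibroblast markers (median -0.24). Of all genes tested, 0.38% were called higher. Of those 13 markers 10 were below 0, among them Vim (-0.75, adjusted p = 0.092), Pdgfrb (-0.40) and Timp1 (-0.24). The mean level of the 13 markers ran from 8.89 to 9.21 with PBS and from 8.40 to 8.93 with T3 in KO, and from 8.63 to 8.75 and from 8.65 to 8.93 in GS. Its part in the rise of Lrat was not tested. In the retinoid list, Cyp26b1, which degrades retinoic acid, was at 0.62 ± 0.18 (adjusted p = 0.198) and Rarb, a retinoic acid receptor, at 0.54 ± 0.14 (adjusted p = 0.156).

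Abcg5 and Abcg8, the subunits of the transporter that exports sterols into bile, were called, alone among 17 genes that handle bile acids and dispose of sterols. Of all genes tested, 0.38% were called higher. Abcg5 read 11.50, 10.98 and 11.22 with PBS in KO and 11.29, 11.33 and 11.12 in GS. With T3 it read 11.85, 11.98 and 11.79 in KO and 11.94, 11.73 and 11.75 in GS, above every PBS array. The rise was 0.60 ± 0.08 (adjusted p = 0.0049). Abcg8 rose by 0.58 ± 0.10 (adjusted p = 0.022) and was called in 5 of the 12 fits with 1 array left out. The list median was 0.04, and Cyp7a1, which sets the pace of bile acid synthesis, was at 0.21 ± 0.31 (adjusted p = 0.851).

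The other large rises were those of genes with varied roles. The unnamed clone 9030619P08Rik rose most, by 2.84 ± 0.25 (adjusted p = 2.2e-04), from 6.36 to 7.25 on the PBS arrays to 8.33 to 9.94 with T3. Mup10, a major urinary protein, rose by 1.62 ± 0.27 (adjusted p = 0.017). Its near-identical copies can share probes, so which Mup gene changed is uncertain. Adgrg3, an adhesion G protein-coupled receptor, read 6.52, 6.67 and 6.30 with PBS in KO and 6.35, 6.09 and 6.35 in GS, and 7.17, 7.46 and 7.70 with T3 in KO and 7.40, 7.79 and 7.41 in GS. The groups did not overlap and the rise was 1.11 ± 0.11 (adjusted p = 4.2e-04).

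Pxdn, a peroxidase that crosslinks collagen IV, rose by 0.83, the interferon-induced GTPase Gbp3 by 0.78, and Art3, of the ADP-ribosyltransferase family, by 0.76. Adenosine deaminase, Ada, rose by 0.75, the sphingosine 1-phosphate receptor S1pr3 by 0.74 and Kcnj8, a potassium channel subunit of vascular muscle, by 0.67. Their adjusted p ran from 2.4e-04 for Art3 to 0.025 for Gbp3, with SE of 0.07 to 0.14. Gbp3 was called in 6 of the 12 fits with 1 array left out. It was the called member of 18 interferon-stimulated genes (median 0.03), against 0.38% of all genes tested called higher. In WT, 1 of these 18 was called higher and 7 lower (median -0.38). The 2 further probe sets of S1pr3, both dimmer, were at -0.01 and 0.22.

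The remaining raised genes are named after their values were seen. They include Cenpa, the centromeric histone (0.58), C1qtnf1, a secreted protein of the adiponectin-related family (0.56), the muscle LIM protein Csrp3 (0.55), Wnt4, a signalling ligand (0.50), and Kitl, the ligand of the receptor Kit (0.35). Among the smaller rises were those of Tefm, a mitochondrial transcription elongation factor (0.32), Hibch, of valine breakdown (0.29), Mrpl3, a mitochondrial ribosomal protein (0.24), Decr2, a peroxisomal reductase of unsaturated fatty acids (0.29), and Pex3, of peroxisome assembly (0.23). Sepsecs, the enzyme that makes the selenocysteine of selenoproteins, rose by 0.28. Cenpa, C1qtnf1 and Wnt4 were called in all 12 fits with 1 array left out, Csrp3 and Hibch in 4, Sepsecs in 2, and Kitl, Tefm, Mrpl3, Decr2 and Pex3 in 1.

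The 10 genes that fell did so by 0.32 to 0.74. Tsc22d3, a glucocorticoid-induced leucine zipper protein, was at 11.39, 11.45 and 11.81 with PBS in KO and 11.02, 12.11 and 11.59 in GS. With T3 it was at 10.98, 10.66 and 10.69 in KO and 10.74, 10.86 and 10.99 in GS, below every PBS array. It fell by 0.74 on the log2 scale with an SE of 0.15 (adjusted p = 0.049), and was called in 1 of the 12 fits with 1 array left out. Irs1, which couples the insulin receptor to its downstream kinases, ran from 10.17 to 10.59 with PBS and from 9.78 to 10.29 with T3. Its difference was -0.43 ± 0.08 (adjusted p = 0.049), and it was called in 2 of those 12 fits. The 3 T3 arrays of each genotype lay below the PBS arrays of that genotype, although the GS T3 replicate 1 lay above the KO PBS replicate 2. Irs1 was the called member of 18 genes of insulin signalling and FOXO1 response, whose median was -0.06. Of all genes tested, 0.0717% were called lower.

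Adam23, a cell surface protein of the disintegrin family, was at -0.59 ± 0.09 (adjusted p = 0.015) and Ednrb, the endothelin B receptor, at -0.41 ± 0.07 (adjusted p = 0.015). Both were called in 11 of the 12 fits. Zfp395 (-0.38), Ahnak2 (-0.33) and the clone A330094K24Rik (-0.32) completed the 7 whose groups were apart in both genotypes, and were called in 1, 2 and 2 of the 12 fits. Ahnak2 (5.34 to 5.51 with T3) and A330094K24Rik (5.26 to 5.45 with T3) reached the 40th percentile, the filter for dim signals, on 8 of the 12 arrays, all 6 PBS arrays among them. They thus passed the filter through the group where they were high, and the size of these falls is not exact. Tent5a, a poly(A) polymerase (-0.62), the taurine transporter Slc6a6 (-0.48) and the antiproliferative gene Tob2 (-0.45) overlapped between T3 and PBS in GS. Aspg, an asparaginase, was the raised gene whose arrays overlapped in 1 genotype.

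Most genes of the pathway lists, hepatic T3 targets among them, were not called. Of 21 tested hepatic T3 targets, 2 were called higher, Dio1 and Idh3a, against 0.38% of all genes tested, and none lower. The list was drawn up with earlier results of these data known, so this count describes the list and tests nothing. The median of the 21 was 0.08, against 0.66 in WT alone, where 11 of them were called higher and 0 lower. With an unadjusted p under 0.05, but not called, were Gpd2, the lipogenic enzyme Me1 (0.33, adjusted p = 0.440), the carnitine transferase Cpt1a (0.26, adjusted p = 0.175) and the transcription factor Klf9 (0.33, adjusted p = 0.123). Thrsp (0.03) and Mlxipl (0.03), of lipid synthesis, and Bcl3, a cofactor of NF-κB (0.11), had adjusted p of 0.767 or more, and the sign of Thrsp and Mlxipl turned under other settings. Thra, the gene of the other T3 receptor, was at -0.23 ± 0.08 (adjusted p = 0.333). No gene was called among 20 of fatty acid synthesis (median 0.03), 19 of fatty acid oxidation (0.10), 15 of cholesterol synthesis (-0.02), 14 of gluconeogenesis and glycolysis (-0.06), 17 acute phase proteins (-0.12), 16 clock genes (-0.0022), 17 of ER stress (-0.08), 17 of xenobiotic metabolism (-0.02) or 9 of proliferation (-0.01). Nor was any called among 16 thyroid hormone receptors, retinoid X receptors and coregulators (-0.06), 12 heat shock genes and chaperones (-0.10) or 13 immediate early genes (-0.07), and Dio1 alone was called among 16 of thyroid hormone metabolism and transport (0.02). With an unadjusted p under 0.05, though not called, 6 of the 16 clock genes were lower and 0 higher. Of the 16 receptors and coregulators, 6 were lower and 2 higher, against 5.39% lower and 5.81% higher of all genes tested. In WT alone, 6 of the 20 fatty acid synthesis genes were called higher. ER stress had 2 genes called higher and 4 lower in WT, the clock 2 and 3, and gluconeogenesis and glycolysis 2 and 2. Immediate early genes and xenobiotic metabolism each had 0 higher and 3 lower there. Acute phase proteins, and receptors with coregulators, each had 1 higher and 1 lower. The lists of fatty acid oxidation, cholesterol synthesis, heat shock and proliferation each had 1 gene called in WT. Missing calls in those lists thus do not show a lost response.

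Of the markers in the 9 cell type lists, Lrat was the 1 called. The medians of the lists of hepatocytes (-0.03), T and NK cells (-0.0033), B and plasma cells (0.01), and neutrophils and monocytes (0.01) were near 0, with 6 cholangiocyte markers at -0.17 and 2 erythroid ones at -0.12. The medians of 12 sinusoidal endothelial markers were -0.16 in KO and -0.15 in GS, with 6 of the 12 lower at an unadjusted p under 0.05, against 5.39% of all genes tested. Those of 13 Kupffer cell markers were -0.24 in KO and 0.29 in GS, with a mean level of 8.78 to 9.61 on the GS T3 arrays against 8.76 to 8.88 on the GS PBS arrays. The part of these cells in the called genes was not tested.

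**Figure D2:**
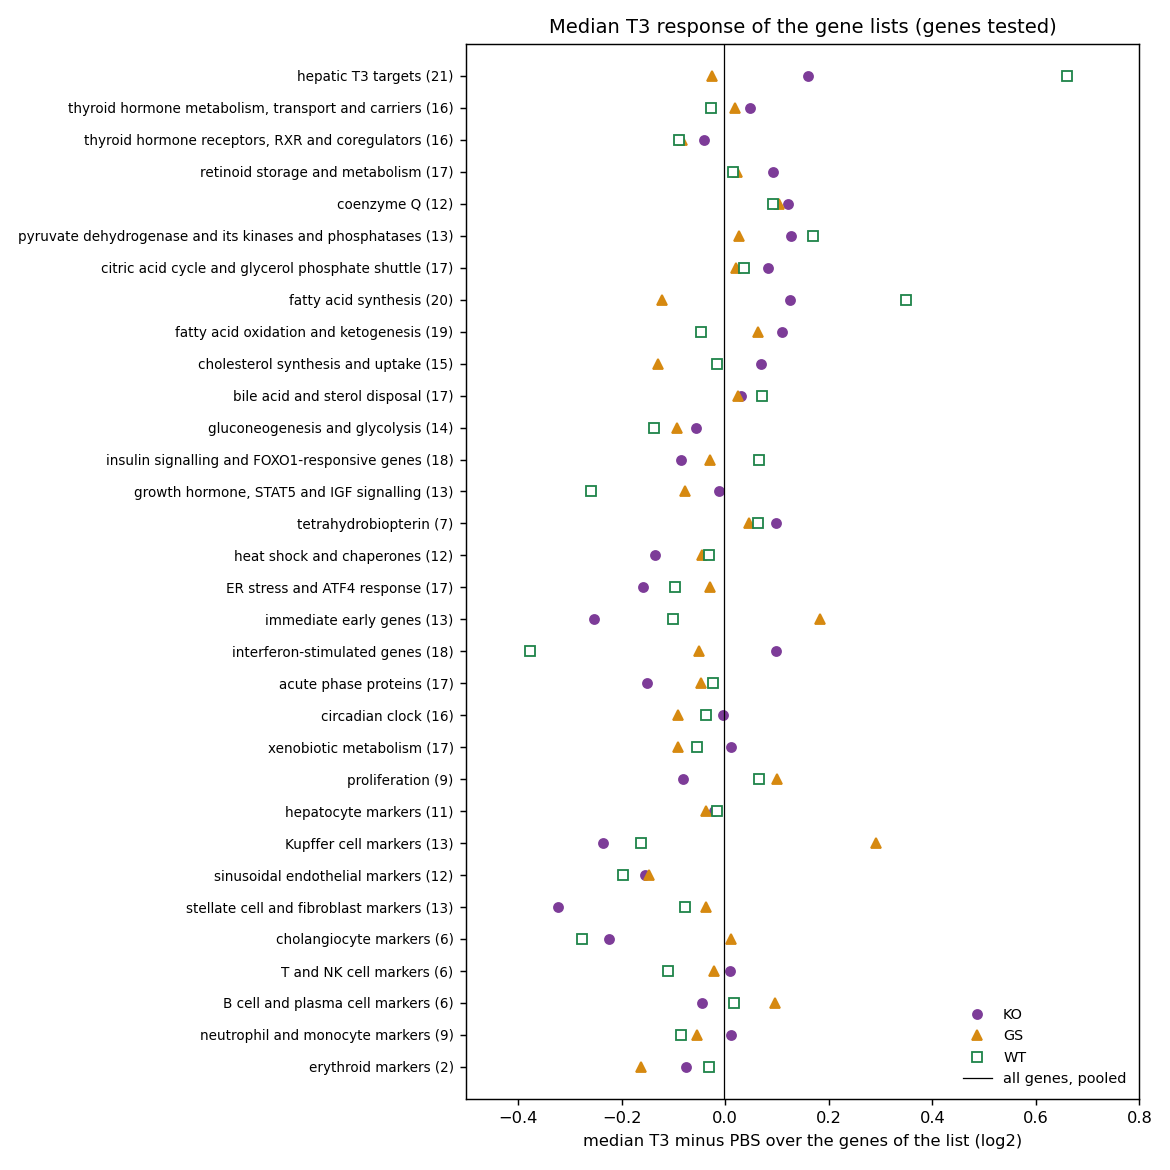
Median log2 difference of T3 minus PBS over the tested genes of each list (number in brackets) in KO (purple), GS (orange) and WT (green squares), with the median of all genes pooled over KO and GS as a line. The hepatic T3 targets stand at 0.16 in KO and -0.03 in GS against 0.66 in WT, and the Kupffer markers lie below 0 in KO and above it in GS.

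The response in GS was compared with that in KO. No gene was called (limma, 0 of 13951, smallest adjusted p 0.791), with 841 at an unadjusted p under 0.05 (6.03%). The median half-width of the 95% interval was 0.28, against 0.14 for the pooled effect. The missing calls do not show that the genotypes responded alike. Taken alone in the 12-array fit, KO had 8 called genes (0.0573%), 6 higher (0.043%) and 2 lower (0.0143%), and GS 16 (all higher, 0.115%). Both use the arrays of the pooled comparison.

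In 68 genes (0.487%) the T3 arrays lay above the PBS arrays in 1 mutant and below them in the other. With 3 arrays per group such opposite sides can also arise by chance, and their share was not tested. The genes with the smallest p for GS minus KO are given as not called. Hspb1, a small heat shock protein, read 10.79, 11.29 and 11.03 with PBS and 10.24, 10.18 and 10.04 with T3 in KO, and 10.01, 9.95 and 10.10 with PBS and 9.96, 9.90 and 10.09 with T3 in GS, a difference of 0.84 ± 0.16. The 3 PBS arrays of KO were higher than all others, and in GS the T3 and PBS arrays overlapped, so Hspb1 is not among the 68. Slc25a33, a mitochondrial pyrimidine nucleotide carrier, differed by 1.15 ± 0.24, Crip1 by 0.68 ± 0.15, Cyp2c39 by -0.82 ± 0.18, Zfp229 by -0.62 ± 0.13 and Sytl4 by -0.49 ± 0.10. Of the 63 called genes 5 had an unadjusted p under 0.05 for GS minus KO, namely Slc25a45 (-0.41), Sel1l3 (0.43), Kitl (0.31), Tob2 (0.42) and Tent5a (0.50).

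**Figure D3:**
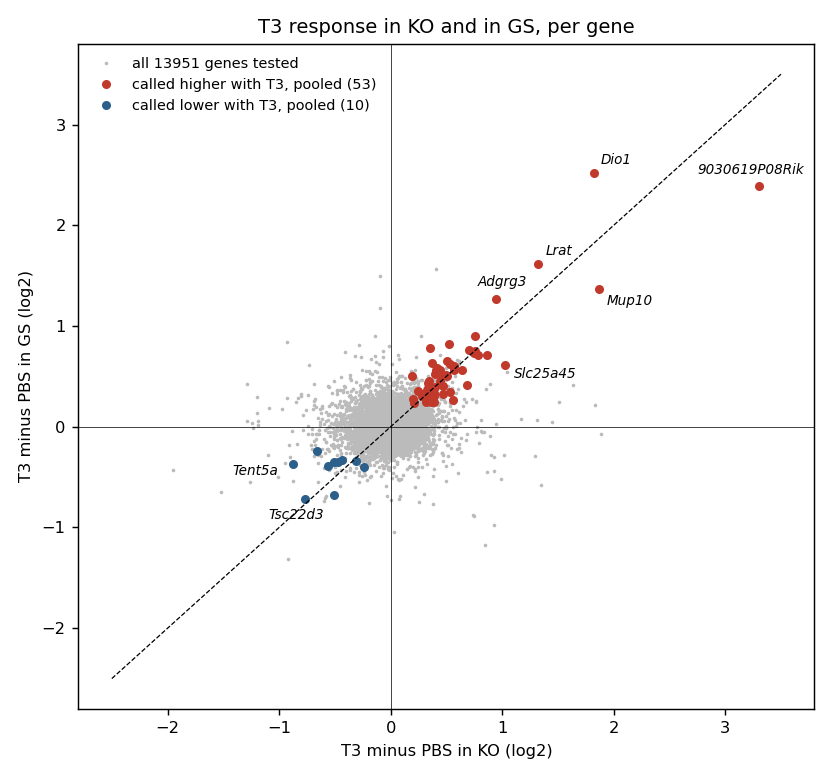
T3 minus PBS (log2) in KO (horizontal) and in GS (vertical) for the 13951 genes tested (grey), with the 53 genes called higher in the pooled comparison in red and the 10 called lower in blue. The dashed line marks equal responses. Called genes lie in the quadrants where both responses have 1 sign, as selection by their pooled value favours.

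In WT, T3 changed far more genes. With the 6 WT arrays alone, 1278 of the same 13951 genes were called (9.16%), 679 higher (4.87%) and 599 lower (4.29%). Of the 53 genes raised in the pooled comparison, 40 were called higher in WT and none lower, and all 53 WT values were above 0. Of the 10 that fell, 6 were called lower in WT and none higher. The median rise of the 53 was 0.48 in the pooled comparison, which had selected them, and 0.88 in WT.

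The difference between the WT response and the pooled response was called for 618 of 14069 genes (4.39%). It was a larger or more positive response in WT for 385 (2.74%) and a smaller or more negative one for 233 (1.66%). Of the 53 raised genes, 26 responded more in WT by this test and none less, and 27 had no called difference. The pooled rise of the 26 was 18.03% to 64.5% of the WT rise on the log2 scale, with a median of 32.7%. Choosing genes for a high pooled value works toward a smaller difference from WT in this count. Examples of the 26 were Idh3a, which rose by 2.21 ± 0.11 in WT against 0.40 (adjusted p of the difference 4.1e-07), Stat5a by 2.02 ± 0.07 against 0.57, Coq10a by 1.97 ± 0.10 against 0.73, Pdp2 by 1.88 ± 0.09 against 0.57, Stat5b by 1.45 ± 0.07 against 0.31 and Gch1 by 1.31 ± 0.06 against 0.50.

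The 27 raised genes with no called difference had a median rise of 0.51 pooled and of 0.42 in WT, and 15 of them were nominally higher in the pooled comparison. They include Adgrg3 (1.11 pooled, 0.87 in WT), Pxdn (0.83 and 0.78), Art3 (0.76 and 0.88), Gbp3 (0.78 and 0.80), Kcnj8 (0.67 and 0.68) and Abcg5 (0.60 and 0.75). The differences of these 6 genes, WT minus pooled, ran from -0.24 ± 0.17 for Adgrg3 to 0.14 ± 0.19 for Abcg5. Other members of the 27 differed more, by -0.81 ± 0.30 for Lrat, -0.49 ± 0.17 for Ada and -0.40 ± 0.18 for S1pr3. Mup10 differed by 0.79 ± 0.55 and Abcg8 by 0.48 ± 0.21. The missing calls do not show that the 27 genes responded alike in WT and in the mutants. Not called in WT were 13, among them Ada (0.26 ± 0.15), S1pr3 (0.34 ± 0.14), C1qtnf1 (0.30 ± 0.10), Septin4 (0.26 ± 0.10) and Wnt4 (0.11 ± 0.15). No difference from WT was called for these 13, so a response particular to the mutants was not shown.

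**Figure D4:**
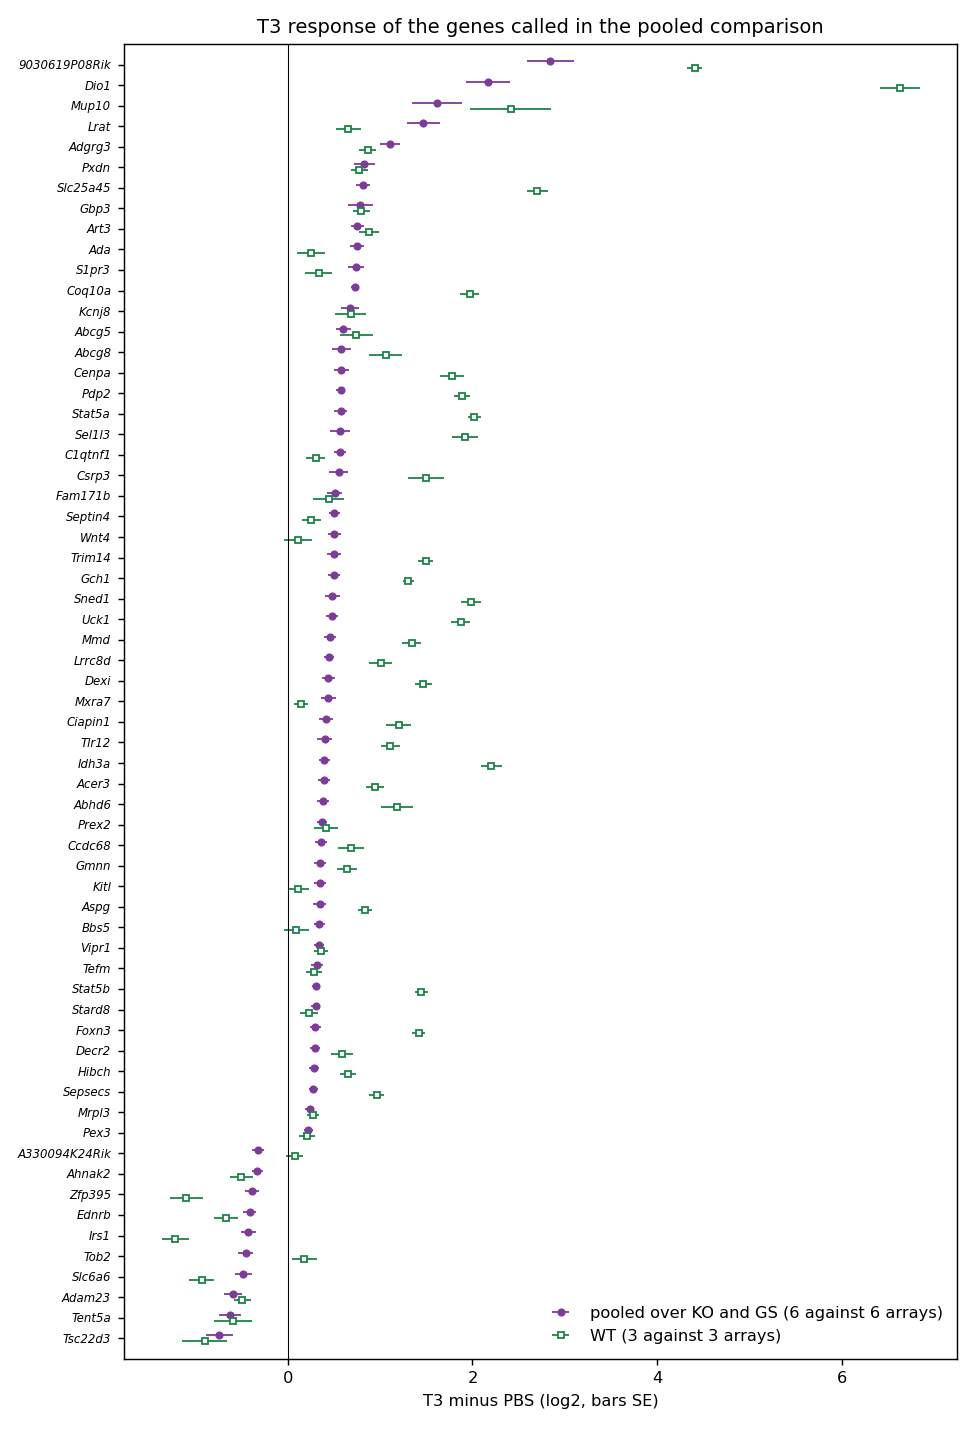
T3 minus PBS (log2, bars SE) of the 63 genes called in the pooled comparison, as pooled over KO and GS (filled circles, 6 arrays against 6) and in WT (open squares, 3 against 3). All 53 raised genes lie above 0 in WT as well, 26 of them with a called larger response there, and Dio1 has the widest gap.

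Of the 12 genes with the largest called differences from WT, 6 in each direction, Dio1 was the 1 called in the pooled comparison. The other positive differences were those of Frmd8 (3.21 in WT, 0.27 pooled), Bcl3 (2.82 and 0.11), the proapoptotic Bmf (2.65 and 0.17), the organic anion transporter Slc22a7 (2.30 and -0.10) and Gpd2 (2.38 and 0.48). The negative differences were those of the acyl-CoA thioesterase Acot3 (-3.43 and -0.07), the cytokine signalling suppressor Socs2 (-3.71 and -0.46), Nipal1 (-2.97 and -0.18), the nuclear receptor Nr4a1 (-2.24 and -0.24), the activin subunit Inhbe (-2.19 and -0.20) and the carrier Slc16a5 (-1.73 and 0.07).

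The levels behind these responses were set side by side. In PBS arrays, the mean of KO and GS was above WT by test for 22 of the 53 raised genes and below it for 3, against 534 (3.8%) and 389 (2.76%) of 14069 genes, 923 in all (6.56%). In T3 arrays it was above WT for 2 of the 53 and below for 25, against 754 (5.36%) and 591 (4.2%). Of the 26 genes with a larger response in WT, 21 were also called above WT with PBS and all 26 had a higher mean there. Both tests use the WT PBS arrays, so they are not independent. Over the 26, the median level above that of WT with PBS was 0.49 in KO and GS with PBS, 1.00 in KO and GS with T3 and 1.48 in WT with T3.

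Pdp2 is an example with the PBS difference called and the T3 difference not. It read 7.51, 7.48 and 7.54 in WT with PBS and 9.56, 9.36 and 9.26 in WT with T3. The KO and GS arrays without T3, at 8.51 to 8.69, stood above all 3 of WT, and with T3 they reached 9.15 to 9.33, overlapping WT. The difference between KO and GS and WT was 1.11 ± 0.07 with PBS (adjusted p = 1.3e-07) and -0.20 ± 0.07 with T3 (adjusted p = 0.064). For Stat5a the differences were 0.51 ± 0.08 with PBS and -0.94 ± 0.08 with T3, for Idh3a 0.72 ± 0.09 and -1.09 ± 0.09, and for Slc25a45 1.02 ± 0.08 and -0.86 ± 0.08, all called. Csrp3 was the 1 of the 26 whose mean with T3 was above that of WT, by 0.33 ± 0.15 (adjusted p = 0.201).

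Among the 27 others, the mean of KO and GS with PBS was above WT for 6, with 1 called, Mup10 (2.26 ± 0.39), and the mean with T3 was below WT for 15, with 6 called. The WT arrays took part in splitting the 53 into 26 and 27, so these counts describe the sets and test nothing. Lrat lay below WT with PBS, by 1.14 on the log2 scale with an SE of 0.21 (adjusted p = 0.0036), and its T3 arrays in KO and GS, 9.34 to 9.85, overlapped those of WT, 9.67 to 10.23. Abcg5 and Abcg8 were lower than WT with T3 (-0.57 ± 0.13 and -0.62 ± 0.15, both called).

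**Figure D5:**
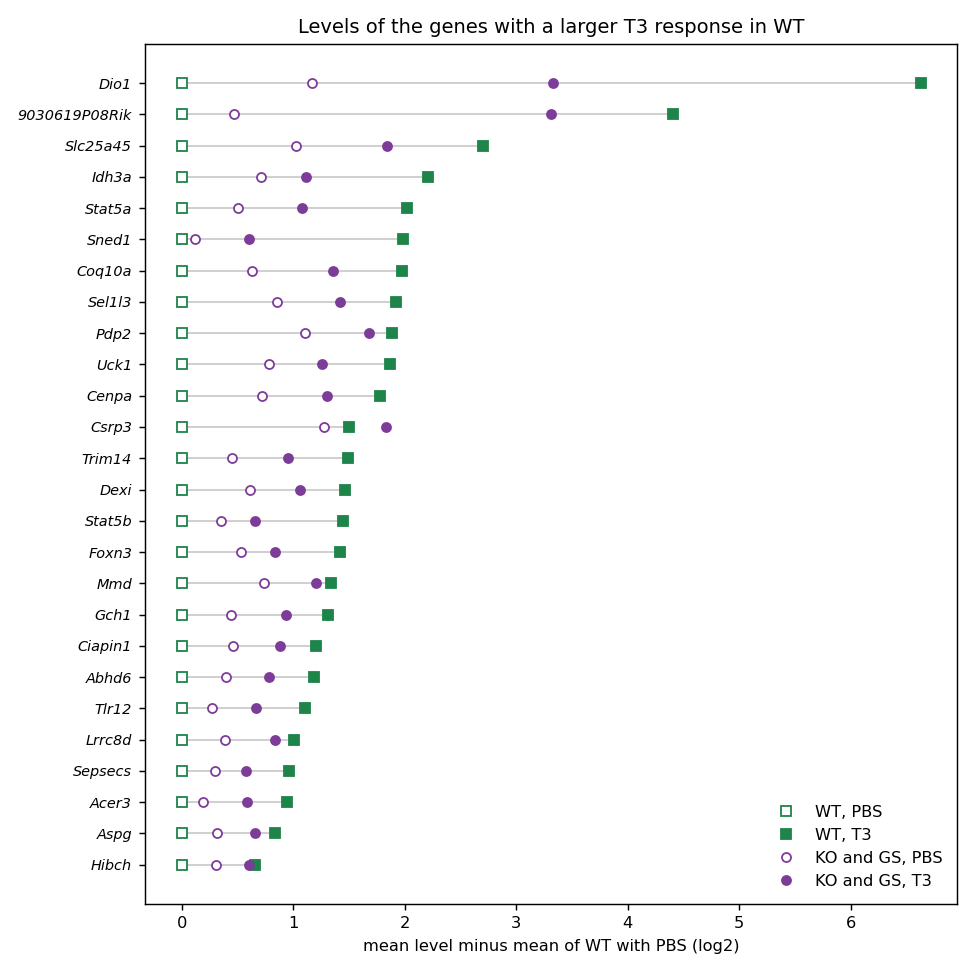
Mean level of the 26 genes with a larger T3 response in WT, minus their mean in WT with PBS (log2), in WT (squares) and in KO and GS together (circles) with PBS (open) and T3 (filled). All 26 open circles lie right of the WT PBS mean, and 25 of the 26 filled circles lie left of the WT T3 mean.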

How the data were processed

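Liver RNA (200 ng per array) was measured on an array with 45101 probe sets. The authors summarised the arrays with RMA, per the submitters' processing notes, and the deposited values are log2 intensities; for its version, the sources used here give none. In the 6 columns of Y147F mice most values had lost their decimal mark, and these columns were not used. A probe table paired 34958 probe sets with 1 symbol, 932 with several and 9211 with none. For each of 18194 genes the brightest probe set, by mean over 18 arrays, was taken, and the gene was tested if at or above the 40th percentile of its array on at least 3 of the arrays fitted.

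In R 4.3.3 with limma 3.58.1, genotype plus treatment was fitted to the 12 arrays (9 residual and 3.92 prior degrees of freedom). Group means were fitted for GS minus KO (12 arrays) and for WT minus pooled (18 arrays). P-values are two-sided and were adjusted over all genes tested (Benjamini-Hochberg). The fit of WT alone and the contrasts within PBS and within T3 arrays were added after the data had been seen. The genes, lists and tests were chosen with earlier results of these data known. Named genes were up to 14 of the largest called rises and falls with groups apart in KO and in GS. Named too were up to 6 each way for WT minus pooled, and up to 3 each way for GS minus KO where nothing was called. Up to 5 called members of a list and genes fixed by name were added. Other genes, such as list members not called, were named outside these rules with their values known, and not all of them are marked. The 23 pathway lists and 9 cell type lists were described by counts and medians, with no test. Alternatives tried were quantile normalization, a filter at the 60th percentile or none, averaging the probe sets of a gene or taking the most variable one, robust moderation with a variance trend, weighted arrays, title numbers over 100000 as a covariate, group means, fold thresholds and leaving out each array. The steps were tested on simulated data. The number of arrays limits the precision.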

Additional observations from a re-analysis of the deposited data

Results flagged for a closer look

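For 25 named genes the T3 response in WT differed from the pooled response by the test of the difference itself. The WT response was higher for Dio1 (4.46), Frmd8 (2.94), Bcl3 (2.71), Bmf (2.49), Slc22a7 (2.40), Gpd2 (1.90), Slc25a45 (1.88), Idh3a (1.81), 9030619P08Rik (1.56), Stat5a (1.44), Thrsp (1.34), Pdp2 (1.31), Coq10a (1.24), Stat5b (1.14), Mlxipl (0.85) and Gch1 (0.81), as differences on the log2 scale. It was lower for Acot3 (-3.36), Socs2 (-3.25), Nipal1 (-2.79), Nr4a1 (-2.00), Inhbe (-1.98), Slc16a5 (-1.80), Irs1 (-0.79) and Zfp395 (-0.71). A330094K24Rik differed by 0.40, since it was at -0.32 in the pooled comparison and at 0.08 in WT. In fits that left out 1 of the 18 arrays, Nr4a1 and A330094K24Rik kept the call in 4, Zfp395 in 7 and Thrsp in 15.

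Of the 6 genes named for the smallest p of GS minus KO, 4 had all T3 arrays above the PBS arrays in 1 mutant and below them in the other, as had 68 of all genes tested (0.487%). Selection by this p favours such opposite sides. The GS response minus the KO response was 1.15 for Slc25a33, 0.68 for Crip1, -0.62 for Zfp229 and -0.49 for Sytl4, and none of these differences was called (adjusted p = 0.791).

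Probe sets without a single gene symbol entered no comparison. In a fit over all probe sets with the pooled design, 8 of them were called, 7 higher and 1 lower, among 65 called in all.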

How the results depend on the processing

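The pooled comparison called 48 to 81 genes under the settings other than fold thresholds, and 17 and 5 of the 63 at 1.5-fold and 2-fold. Leaving out 1 of the 12 arrays gave 30 to 55 calls, with 29 to 48 higher and 1 to 8 lower, so every such fit called fewer than 63. Of genes that fell, 10 in the reported comparison, there were 4 with no filter, 3 with the mean of the probe sets, 4 with the most variable probe set and 16 with the title number covariate. Irs1 and Tsc22d3 kept the call in 4 of 10 settings, Zfp395 in 3, while Dio1, Coq10a, Pdp2, Lrat, Adgrg3, Abcg5 and Gch1 kept it in 10. Stat5a lost it with the most variable probe set (adjusted p = 0.0741), Stat5b with the mean (0.101) and Mup10 with robust moderation (0.0594). Gpd2 gained it in 6 of 10. The difference from WT was called for 309 and 113 of 618 genes at 1.5-fold and 2-fold, and for 423 to 589 without 1 array. GS minus KO called 0 in every fit. Signs turned for Thrsp (-0.015 with the mean, -0.00115 with array weights, -0.095 to 0.095 without 1 array), Mlxipl (-0.014 with array weights, -0.036 to 0.072), Cyp7a1 (-0.028 to 0.45) and the WT difference of Abcg5 (-0.066 to 0.335). Without WT PBS replicate 1 or 2 the genes called between KO and GS and WT with PBS fell from 923 to 580 and 475, and those with T3 fell from 1345 to 675 and 769 without WT T3 replicate 2 or 3, and to 820 with the title number covariate. WT calls fell from 1278 to 840, 819, 796 and 827 without WT T3 replicate 1, 2 or 3 or WT PBS replicate 2. Title numbers over 100000 belonged to every KO array and to replicate 1 of GS T3, of GS PBS and of WT PBS. That covariate thus overlapped with genotype in the comparisons with WT. The cause of the changes in these counts was not tested. No paired analysis was possible because the groups share no title number.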

Other observations

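Tsc22d3, the fall with the largest size, is a known glucocorticoid-induced gene, and a list of 16 glucocorticoid-responsive genes was therefore drawn up after its value had been seen. It gets no test. Of the 16, 1 was called, Tsc22d3, against 0.452% of all genes tested. Of the list, 14 were below 0, with a median of -0.14 against -0.0026 over all genes tested. Lower with an unadjusted p under 0.05, as were 5.39% of all genes tested, were Tsc22d3 itself (-0.74), Ddit4 (-0.67), Fkbp5 (-0.51), Tat (-0.38) and Per1 (-0.34), and Zbtb16 (0.47) and Mt1 (0.39) were above 0. Fkbp5 was at 0.03 in KO and -1.05 in GS, and Per1 at -0.64 and -0.03. In WT, Fkbp5 (-1.51), Per1 (-0.76), Mt1 (-1.84) and Mt2 (-2.30) were called lower and Nr3c1 (0.72) higher, and the other 11 were not called.

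Of 12 sinusoidal endothelial markers, 11 were below 0 in the pooled comparison, among them Fcgr2b (-0.33), Kdr (-0.28), Oit3 (-0.25) and Clec4g (-0.22), and Flt4 was at 0.22. All 17 acute phase genes were below 0, with Orm2 at -0.46 and Crp at -0.21, where the pooled median over all genes tested was -0.0026. The medians of the 17 were -0.15 in KO, -0.05 in GS and -0.02 in WT. None of these endothelial and acute phase genes was called in the pooled comparison.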
